A study of Mus musculus with 31 samples.

Results

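Ttr, Enpp2 and Cst3 were followed in every library of T cells sorted from the mouse choroid plexus. The 3 transcripts were taken by name, as 3 of the 485 genes of the deposited table, and their levels were set beside the number of sorted cells behind each library. The table holds 31 libraries of UMI counts normalised for depth by the authors. A UMI is a tag put on each cDNA molecule, so that a molecule counts once however often it was read. Mice had lived in an enriched (EE) or a standard (SE) environment, and the libraries, each made from 6 to 20 cells, fall into 4 groups: CD4 EE (9 libraries), CD4 SE (8), CD8 EE (7) and CD8 SE (7).

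All mice were C57BL6/J females. EE mice moved at weaning, at 4 weeks of age, into large cages with running wheels, hammocks, toys and tunnels, and stayed there for 4 weeks. SE mice lived in smaller groups, in smaller cages without objects. In each experiment the animals of an environment were cage mates, so that the effects of cage and of environment cannot be told apart. Mice were perfused, the choroid plexus was dissociated with collagenase D, and cells positive for CD45 and CD3 and negative for CD11b were sorted by CD4 or CD8. The titles carry a first number, 1 (19 libraries) or 2 (12 libraries), whose meaning the labels do not give. Tissue was collected in more than one independent series of experiments, per the study's methods, and the number was treated as a possible batch. Libraries that shared environment, first number and animal number in their titles were taken as 1 mouse, which gave 20 mice, 10 of them with libraries of both cell types. For CD8 SE replicates 5 and 6 the titles give animal 5 and the column names give animals 5 and 6, so whether they hold cells of 1 mouse is not settled.

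The choroid plexus is a sheet of secretory epithelium around a vascular stroma, and it makes cerebrospinal fluid. Ttr encodes transthyretin, a carrier of thyroxine and, through retinol-binding protein, of retinol, and it is among the most abundant transcripts of that epithelium. Enpp2 encodes autotaxin, a secreted enzyme that turns lysophosphatidylcholine into lysophosphatidic acid, and it too is a marker of choroid plexus epithelium. Cst3 encodes cystatin C, a secreted inhibitor of cysteine cathepsins that many cell types make, with high levels in macrophages, microglia and dendritic cells and in choroid plexus epithelium. T cells are not known as a main source of any of the 3.

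On the mouse genome build GRCm38, with the GENCODE annotation, Ttr lies on the plus strand of chromosome 18 (20665280 to 20674321) and has 4 exons. Enpp2 lies on the minus strand of chromosome 15 (54838901 to 54952892), has 25 exons in its longest transcript and overlaps the annotated gene Gm26684. Cst3 lies on the minus strand of chromosome 2 (148871722 to 148875692) and has 3 exons. None of the 3 shared a 31-base word with a transcript of another gene, so their counts were not split with near-identical copies.

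The UMI total over the 485 genes ran from 1910 to 26395 per library (median 5097). It was 1910 to 10089 with first number 1 and 7657 to 26395 with number 2. The 9 T cell identity genes of the table other than Cd4, Cd8a and Cd8b1 summed to 54.2 to 120 normalised counts per library, with 8 or 9 of the 9 detected in every library. Of other cell types, 3 of 36 listed choroid plexus epithelial genes (Ttr, Enpp2 and Ifi27) and 1 of 26 listed myeloid genes (Cst3) were among the 485. None of the listed B cell (8), endothelial (12), stromal and mural (12), erythrocyte (7) or neuronal and glial (12) genes were. The authors had removed genes of low abundance, and the other listed markers were not analysed here. Whether the UMIs of the 3 transcripts came from the sorted T cells or from RNA of other cells was not tested.

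Ttr was detected in 31 of 31 libraries and ranked 2 of 485 genes by its mean level. In CD4 EE its normalised count ran from 97.3 to 233 (median 154, mean 162 ± 47.5, SD, n = 9). In CD4 SE it ran from 70.5 to 195 (median 141, mean 141 ± 44.5, n = 8). The CD4 groups overlapped over most of their range. In CD8 EE it ran from 68.0 to 240 (median 114, mean 135 ± 73.2, n = 7), and in CD8 SE from 77.8 to 201 (median 85.1, mean 102 ± 44.3, n = 7). In order of the mean the groups were CD4 EE, CD4 SE, CD8 EE and CD8 SE, and each mean lay within 1 SD of its neighbour. As a share, Ttr took from 1.17% (95% exact binomial interval 0.890% to 1.5%, CD8 EE replicate 5) to 3.82% (3.01% to 4.78%, CD4 EE replicate 5) of the UMIs of the table. These intervals cover counting error only. Per sorted cell, 3.47 to 42.5 UMIs of Ttr were counted (median 11.1), a figure that also moves with the depth of the library.

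Enpp2 was detected in 31 of 31 libraries and ranked 85 of 485. In CD4 EE its normalised count ran from 13.7 to 30.02 (median 17.6, mean 20.1 ± 5.57, n = 9), and in CD4 SE from 5.90 to 19.2 (median 13.7, mean 13.1 ± 3.89, n = 8). The CD4 groups overlapped, with 3 EE libraries above all SE libraries and 4 SE libraries below all EE libraries. In CD8 EE it ran from 6.18 to 71.9 (median 12.1, mean 27.1 ± 29.0, n = 7). In CD8 SE it ran from 6.79 to 26.9 (median 8.58, mean 11.8 ± 7.21, n = 7). The medians of the CD8 groups lay below both CD4 medians, and the SD of CD8 EE was larger than its mean.

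Cst3 was the least abundant, with rank 246 of 485, and was detected in 30 of 31 libraries. In CD4 EE its normalised count ran from 2.73 to 9.88 (median 6.59, mean 6.40 ± 2.58, n = 9), and in CD4 SE from 1.18 to 22.9 (median 4.21, mean 6.41 ± 7.08, n = 8). The CD4 SE mean rests largely on replicate 2, whose nearest neighbour in that group had 9.16. In CD8 EE it ran from 4.37 to 24.6 (median 10.4, mean 10.7 ± 7.28, n = 7). In CD8 SE it ran from 0 to 12.4 (median 4.11, mean 4.41 ± 3.99, n = 7). The library without Cst3, CD8 SE replicate 7, had 2499 UMIs in the table, and a count of 0 allows up to 3 UMIs, which is a normalised count of 6.79 there. In all, 8 libraries held at most 3 UMIs of Cst3, so single values of this gene are coarse. A tag is counted once per molecule, so the ranks of the 3 genes were not corrected for length.

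**Figure D1:**
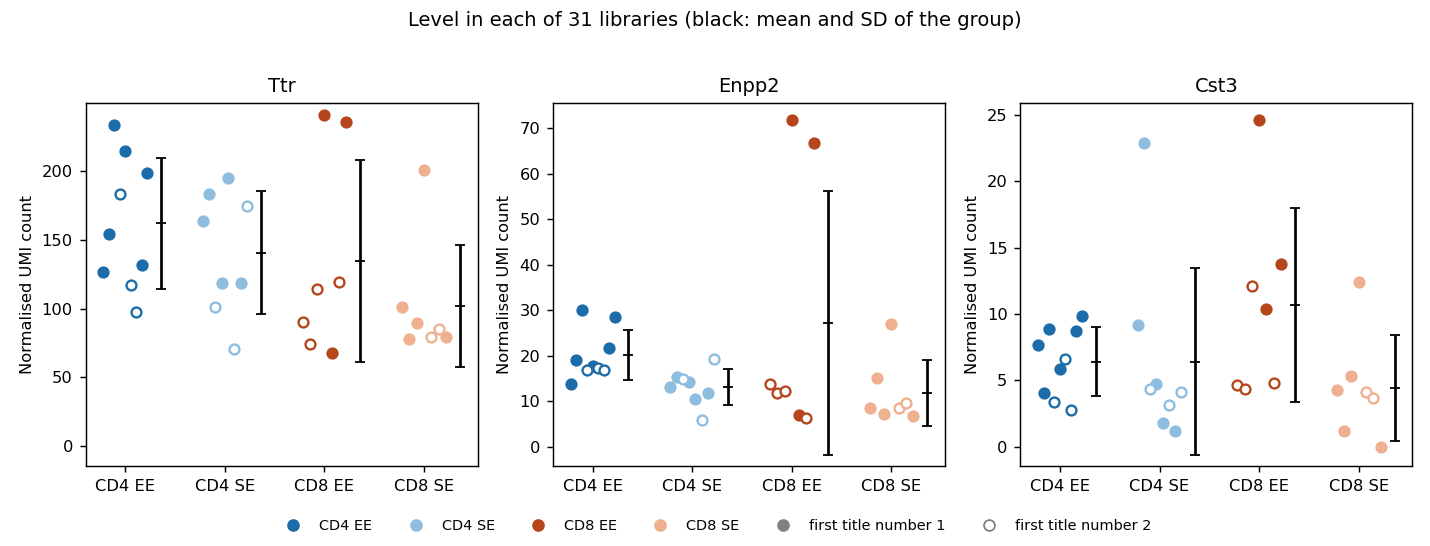
Normalised UMI count of Ttr, Enpp2 and Cst3 in each library, by group on the x axis (filled points, first title number 1; open points, number 2; black bars, mean and SD). For Ttr and Enpp2, 2 CD8 EE libraries and 1 CD8 SE library stand above the other CD8 libraries, at 201 to 240 and 26.9 to 71.9.

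The 3 transcripts varied between libraries of a group by more than counting error. The chi-square of the UMI counts per degree of freedom, which is near 1 when libraries of a group differ by counting alone, was 22.4 for Ttr, 9.08 for Enpp2 and 3.70 for Cst3, against a median of 1.91 over the 485 genes. These were ranks 2, 13 and 56. The statistic grows with abundance, so each was also set beside the 20 genes nearest to it in mean level. Of those, 1 had a higher value than Ttr, 0 than Enpp2 and 3 than Cst3. Ttr ranked 2 of 485 by mean level, so at most 1 of its 20 genes could be more abundant. For Ttr the comparison thus does not take out the effect of abundance. Relative to the mean, Ttr was less variable than Enpp2 and Cst3, with a coefficient of variation over the 31 libraries of 0.401 against 0.837 and 0.819 (median of all genes 0.533).

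Much of the spread among CD8 libraries came from CD8 EE replicate 4 (9 cells), CD8 EE replicate 7 (15 cells) and CD8 SE replicate 4 (14 cells), which had the 3 highest values of each of the 3 genes among the 14 CD8 libraries. Ttr stood at 240, 236 and 201 in them, in that order, and between 68.0 and 119 in the other 11. Enpp2 stood at 71.9, 66.8 and 26.9, against 6.18 to 15.1. Both genes thus left a gap between these libraries and the rest. Cst3 stood at 24.6, 13.8 and 12.4, against 0 to 12.1, with no such gap. All 3 libraries carried first number 1 and had 2885 to 3181 UMIs. The other 5 CD8 libraries with that number had 2499 to 10089 UMIs and Ttr between 68.0 and 101. The part of the first number and of depth in these levels was not tested. These libraries were singled out after their values were seen, and results that rest on them are given with and without them.

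Among CD8 libraries, the same ones also stood out by transcripts of the mitochondrial genome, a set taken after the values were seen. In the 17 CD4 libraries the sum of these transcripts ran from 117 to 422, a range that holds the value of CD8 EE replicate 7. The 13 such transcripts of the table summed to 511, 285 and 426 normalised counts in CD8 EE replicate 4, CD8 EE replicate 7 and CD8 SE replicate 4, ranks 1, 3 and 2 of the 14 CD8 libraries, against 127 to 241 in the other 11. CD4 SE replicate 2, which had the highest Cst3 of the CD4 libraries (22.9), also had the highest mitochondrial sum of the 17 CD4 libraries (422) and was the only CD4 library in which Cd4 was at 0, where 3 UMIs would be a normalised count of 7.62. The sum of the 9 shared T cell identity genes was not set apart in the 3 CD8 libraries, at 69.8, 86.4 and 72.4, against 55.5 to 120 in the other 11. Cd8a, a subunit of the CD8 coreceptor, was at 2.05, 5.89 and 2.07, against 4.29 to 17.6 in the other CD8 libraries, so that the first and the last lay below that range, each with a single UMI. Its partner Cd8b1 was at 16.4, 9.82 and 0, against 4.29 to 11.5. The part of these differences in the levels of Ttr, Enpp2 and Cst3 was not tested.

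Whether the levels followed the size of the sorted pool was the next comparison. Ttr had a slope below 0 against pool size before adjustment, which did not pass the adjusted threshold, and the intervals of the slopes of Enpp2 and Cst3 included 0. Ttr ranged from 85.1 to 240 in the 5 libraries of 9 cells (mean 128 ± 64.5), from 79.2 to 233 in the 5 of 10 cells (168 ± 66.0), from 97.3 to 199 in the 6 of 13 cells (144 ± 43.7) and from 70.5 to 236 in the 7 of 15 cells (121 ± 58.8). In the 4 libraries of 14 cells it ran from 90.0 to 201 (134 ± 47.5). The single pools of 6, 12, 17 and 20 cells had 175, 183, 68.0 and 77.8. The 2 largest pools were thus among the lowest, but the ranges of the other pool sizes overlapped widely. In the limma fit with the 4 groups as terms, log2(normalised count + 1) of Ttr had a slope of -0.067 per additional sorted cell (SE 0.029, 95% interval -0.12 to -0.01, unadjusted p = 0.0248, adjusted p = 0.991). No gene passed the adjusted threshold of 0.05 for this slope (0 of 485, 0%), and 3.09% of genes had an unadjusted p under 0.05. The slope of Ttr had the same sign within CD4 libraries (-0.091) and within CD8 libraries (-0.049), and within first numbers 1 (-0.047) and 2 (-0.11), and it was -0.062 without the 3 CD8 libraries. The slope of Enpp2 was -0.030 (SE 0.045, 95% interval -0.12 to 0.06) and that of Cst3 was -0.053 (SE 0.056, 95% interval -0.17 to 0.06), each with an adjusted p of 0.991 in limma.

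As a plain correlation over the 31 libraries, Ttr and the number of sorted cells had a Pearson r of -0.338 (permutation p = 0.0636, adjusted 0.191 over the 15 relations computed) and a Spearman rho of -0.328 (permutation p = 0.0730, adjusted 0.232). Without the 2 libraries farthest from the median number of cells r was -0.232, so part of the relation rests on the extreme pools. Within first numbers 1 and 2 r was -0.258 and -0.501. For Enpp2 r was -0.047 (permutation p = 0.798, rho -0.047, p = 0.798), and for Cst3 it was -0.055 (permutation p = 0.772, rho -0.044, p = 0.812), with adjusted values of 0.799 for both r and 0.870 for both rho. Against the UMI total, which was compared within each first number because the numbers differ in depth, r for Ttr was -0.395 (permutation p = 0.0938, adjusted 0.235, rho -0.377, p = 0.113) among 19 libraries and -0.569 (permutation p = 0.0541, adjusted 0.191, rho -0.532, p = 0.0775) among 12. Without the 2 libraries of most extreme total these became -0.154 and -0.668. For Enpp2 and Cst3 r with the total lay between -0.250 and 0.0899. Some mice gave more than 1 library, so the 31 libraries are not fully independent and these p-values may be too small.

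**Figure D2:**
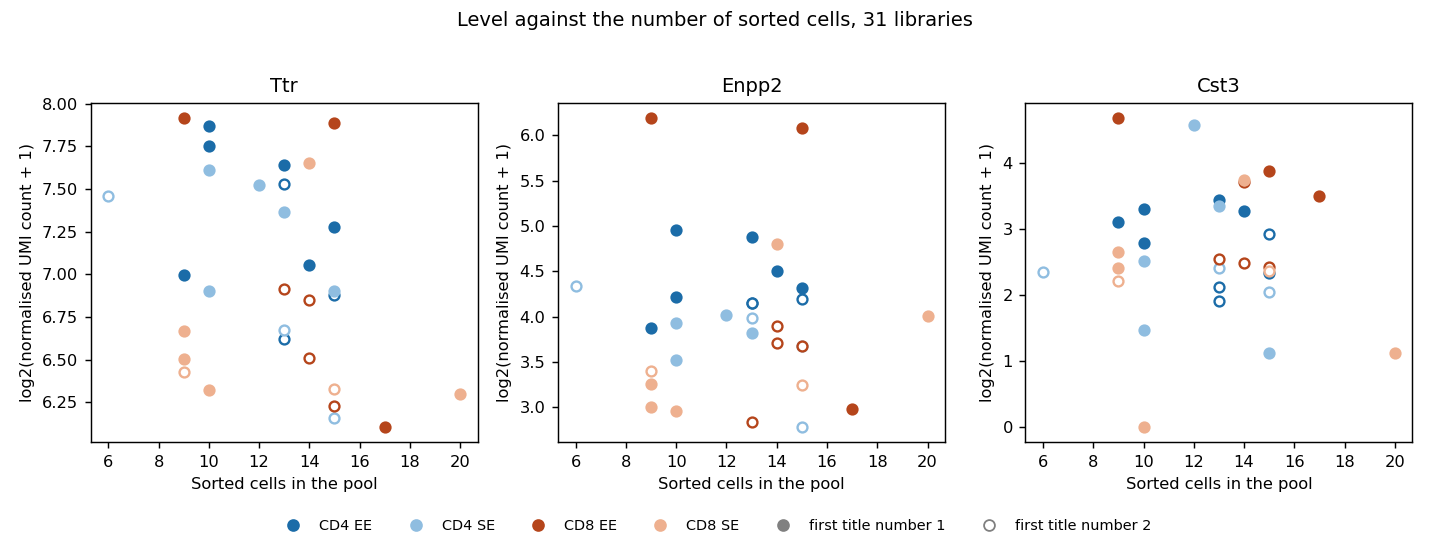
log2(normalised UMI count + 1) of each transcript on the y axis against the number of sorted cells on the x axis, 1 point per library, coloured by group (filled, first title number 1; open, number 2). Ttr has a slope of -0.067 per cell, with libraries of 9 to 15 cells spread over nearly its whole range.

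The levels of the 3 transcripts were also set against each other. Ttr and Enpp2 had a Pearson r of 0.751 on the log2 scale (permutation p = 1e-05, the smallest that 100000 resamples can give, adjusted 0.00015) and a Spearman rho of 0.748 (permutation p = 2e-05, adjusted 0.0003). The relation was positive in each subset: r was 0.774 and 0.565 within first numbers 1 and 2, 0.728 after centring on group and first number, 0.680 without the 3 CD8 libraries and 0.705 without the 2 libraries farthest in Ttr. Within the 17 CD4 libraries r was 0.613 (permutation p = 0.00905) and rho 0.480 (permutation p = 0.0528). These libraries count as 17 mice only if the first number is part of what identifies a mouse, which the labels do not settle. Within the 14 CD8 libraries r was 0.856 (permutation p = 0.00106) and rho 0.490 (permutation p = 0.0783), so the linear value there leans on the 2 CD8 EE libraries at the top.

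Cst3 followed the other transcripts less closely. Its r was 0.505 with Ttr (permutation p = 0.00339, adjusted 0.0170, rho 0.483, p = 0.00656, adjusted 0.0492) and 0.548 with Enpp2 (permutation p = 0.00187, adjusted 0.0140, rho 0.439, p = 0.0147, adjusted 0.0737). Without the 3 CD8 libraries r was 0.355 and 0.329. Within first number 1 r was 0.560 and 0.594, and within number 2 it was 0.136 and 0.0744, which among 12 libraries did not differ detectably from 0 (permutation p = 0.669 and 0.826). Without the 2 libraries farthest on the x axis they were 0.396 and 0.379.

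**Figure D3:**
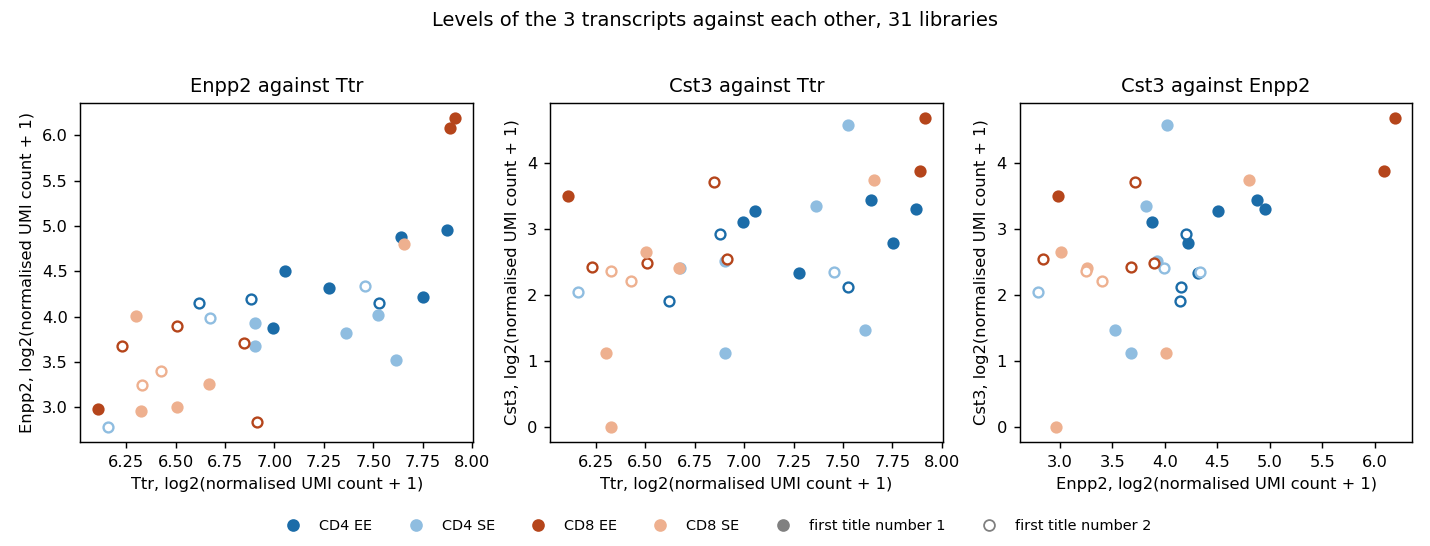
Levels of the 3 transcripts against each other, both axes as log2(normalised UMI count + 1), 1 point per library coloured by group (filled, first title number 1; open, number 2). Enpp2 follows Ttr over the range (r = 0.751), and the 2 CD8 EE libraries with the most Enpp2 lie at the top right.

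The ratio of the transcripts was not constant. The median over the 31 libraries was 10.98 UMIs of Enpp2 per 100 UMIs of Ttr, with a range of 5.17 (CD8 EE replicate 6) to 29.9. CD8 EE replicates 4 and 7 had the highest ratios, 29.9 (95% exact binomial interval 19.9 to 44.0, from 35 and 117 UMIs) and 28.3 (18.8 to 41.8, from 34 and 120 UMIs). The CD4 libraries of the same mice, CD4 EE replicates 5 and 9, had ratios of 8.22 (2.92 to 18.8) and 14.3 (8.80 to 22.2). Both mice had high Ttr in the CD4 library too (214 and 199). These libraries were singled out after their values were seen, the intervals leave out the spread between libraries, and the difference in ratio was not tested. The third library with high values, CD8 SE replicate 4, had a ratio of 13.4 (6.89 to 24.0), inside the range of the remaining libraries, whose highest was 19.4 (12.2 to 29.7, CD8 SE replicate 2). Cst3 had a median of 4.43 UMIs per 100 of Ttr (range 0 to 15.3).

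Over all 485 genes, the transcript most like Ttr by the Spearman correlation of levels over the 31 libraries was Enpp2 (rho 0.748), and the one most like Enpp2 was Ttr. This order was not kept under other settings. Without the 3 CD8 libraries mt-Rnr2 (0.748) stood above Enpp2 (0.661) for Ttr, and after centring on group and first number Ndufa1 (0.669) and Atp5l (0.617) stood above Ttr (0.516) for Enpp2. The next for Ttr over the 31 libraries were mitochondrial: mt-Co1 (a cytochrome c oxidase subunit, 0.652), mt-Rnr2 (a mitochondrial ribosomal RNA, 0.622), mt-Cytb (cytochrome b, 0.604) and mt-Nd1 (a subunit of complex I, 0.582). For Enpp2 they were Ndufa1 (a nuclear-encoded subunit of complex I, 0.558), Atp5l (0.530) and Atp5j (0.483), both subunits of ATP synthase, and S1pr1 (0.501), the sphingosine-1-phosphate receptor that T cells use to leave lymphoid tissue. For Cst3 they were mt-Nd1 (0.596), Anapc5 (a subunit of the anaphase-promoting complex, 0.511), Ttr (0.483), mt-Co1 (0.478) and mt-Nd2 (0.456). The median rho over all genes was 0.0019 for Ttr, -0.0067 for Enpp2 and -0.025 for Cst3. These values are a description. The levels share library depth and normalisation, and after the same centring mt-Co1 (0.598) stood above Enpp2 for Ttr.

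Whether EE changed the 3 transcripts in CD4+ T cells was asked over 9 EE and 8 SE libraries. Enpp2 was the member with the clearest difference. Its log2 difference was 0.60 (SE 0.25, 95% interval 0.09 to 1.11, limma unadjusted p = 0.0216, adjusted p = 0.992), and on the log2 scale 9 of 9 EE libraries lay above the mean of the SE libraries. For the single gene, the exact permutation test gave p = 0.00411. The difference was 0.67 within first number 1 and 0.46 within number 2. Ttr had a log2 difference of 0.22 (SE 0.21, 95% interval -0.22 to 0.65, adjusted p = 0.992 in limma) and Cst3 of 0.32 (SE 0.40, 95% interval -0.50 to 1.14, adjusted p = 0.992 in limma). With the adjusted threshold, 0 of the 3 members and 0 of 483 genes (0%) were called by limma. An unadjusted p under 0.05, which Enpp2 had, was found for 3.73% of all genes. Of the T cell identity genes, Ptprcap had one (log2 difference 0.96, limma unadjusted p = 0.0409, adjusted p = 0.992). In bulk libraries of this kind, fewer cells that carry a transcript and less of it per cell cannot be told apart.

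In CD8+ T cells, with 7 EE and 7 SE libraries, the largest difference was in Cst3. Its log2 difference was 1.25 (SE 0.47, 95% interval 0.28 to 2.22, limma unadjusted p = 0.0137, adjusted p = 0.95), and on the log2 scale 7 of 7 EE libraries lay above the mean of the SE libraries, with 5 of 7 SE libraries below the lowest EE library. The exact permutation test of this gene gave p = 0.0408. It counted CD8 SE replicates 5 and 6 separately, although they may come from 1 mouse, so this p may be too small. Both are among the 5 SE libraries below the lowest EE library. The log2 difference of Cst3 was 2.04 within first number 1, 0.51 within number 2 and 1.15 without the 3 CD8 libraries. Most of these values rest on a few UMIs, since 4 of the 7 SE libraries held at most 3 UMIs of Cst3. Enpp2 had a log2 difference of 0.67 (SE 0.44, 95% interval -0.24 to 1.58, adjusted p = 0.95 in limma), which was 1.48 within number 1, 0.21 within number 2 and 0.11 without the 3 CD8 libraries. Ttr had 0.31 (SE 0.26, 95% interval -0.21 to 0.84, adjusted p = 0.990 in limma) and 0.095 without them. By limma 0 of the 3 members and 0 of 484 genes (0%) passed the adjusted threshold, and 2.48% of genes had an unadjusted p under 0.05. With first number 2 the only SE libraries were replicates 5 and 6, both titled as animal 5, so these SE values may rest on a single mouse.

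Whether the EE difference itself differed between CD4 and CD8 cells was tested as an interaction over all 31 libraries. The difference, CD4 minus CD8, was -0.10 for Ttr (SE 0.34), -0.069 for Enpp2 (SE 0.51) and -0.93 for Cst3 (SE 0.64, 95% interval -2.21 to 0.35, unadjusted p = 0.151), with adjusted p-values of 0.976, 0.982 and 0.976 in limma. None of the 485 genes (0%) was called, and 2.47% had an unadjusted p under 0.05, so the EE difference of Cst3 in CD8 cells was not shown to differ from that in CD4 cells. Among the list genes Ptprcap alone had an unadjusted p under 0.05 (1.37, limma unadjusted p = 0.0439, adjusted p = 0.976).

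CD4 and CD8 libraries were compared with environment as a term. The log2 difference of Ttr, CD4 minus CD8, was 0.42 (SE 0.17, 95% interval 0.08 to 0.76, unadjusted p = 0.0157), which did not pass the adjusted threshold (limma adjusted p = 0.121). Enpp2 differed by 0.20 (SE 0.25, adjusted p = 0.694) and Cst3 by -0.067 (SE 0.32, adjusted p = 0.933) in the same limma fit. Thus 0 of the 3 members were among the 36 of 485 genes (7.42%) that were called, 4.33% higher and 3.09% lower in CD4. An unadjusted p under 0.05, which Ttr had, was found for 22.3% of genes. Of the 12 T cell identity genes 5 had one. Cd4, Cd8a and Cd8b1 were called, and Ptprc (0.66) and Thy1 (-0.53) were not. Without each library in turn the limma adjusted p of Ttr ran from 0.0492 to 0.210, and 1 of 31 fits passed. That fit left out CD8 EE replicate 7 (difference 0.50). Its high Ttr by itself makes the difference larger when it is left out, so the pass is no support. The difference of Ttr was 0.37 within first number 1 and 0.39 within number 2. That in Enpp2 was -0.17 and 0.53, and it turned to -0.044 in edgeR and -0.099 in DESeq2 on the recovered counts. Without the 3 CD8 libraries the differences were 0.71 for Ttr, 0.68 for Enpp2 and 0.29 for Cst3. These libraries were left out because of their high values, which by itself raises the difference, so no test is given for that fit.

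In the 10 mice with both cell types the same comparison could be made within a mouse. Ttr was higher in the CD4 library of 7 mice, with a mean log2 difference of 0.454 ± 0.589 (SD, n = 10, exact permutation p = 0.0430 over the signs). The exceptions were the mice of CD8 EE replicates 4 and 7 (240 against 214 and 236 against 199) and the pair formed by CD8 SE replicates 5 and 6 with CD4 SE replicate 6 (mean 82.2 against 70.5), whose animal is in doubt. Without that pair the mean difference of Ttr was 0.529 ± 0.572 (n = 9, exact permutation p = 0.0312), with 7 of 9 mice higher in CD4. Leaving it out was chosen after the values were seen. It took out an exception, which by itself raises the difference. Enpp2 was also higher in the CD4 library of 7 mice, with a mean difference of 0.0968 ± 1.05 (permutation p = 0.775). Cst3 was higher in 3 mice (0.149 ± 1.44, permutation p = 0.777). Its mean lay above 0 although most mice were lower in CD4. The largest difference, 3.46, was that of CD4 SE replicate 2 and CD8 SE replicate 2 (22.9 against 1.16, from 9 and 2 UMIs). With the mouse as a random block in limma, which called 53 genes, Ttr had a difference of 0.42 (adjusted p = 0.0954), and with the mouse as a fixed block, which called 23, it had 0.43 (adjusted p = 0.0971). Across the 10 mice, the CD4 and CD8 levels had r = 0.505 for Ttr (permutation p = 0.145, rho 0.212, p = 0.559), 0.506 for Enpp2 (permutation p = 0.159, rho 0.503, p = 0.143) and 0.281 for Cst3 (permutation p = 0.433, rho 0.285, p = 0.428), with adjusted values of 0.297, 0.297 and 0.650. Without the 2 mice farthest from the median, r was 0.359, 0.279 and 0.467.

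**Figure D4:**
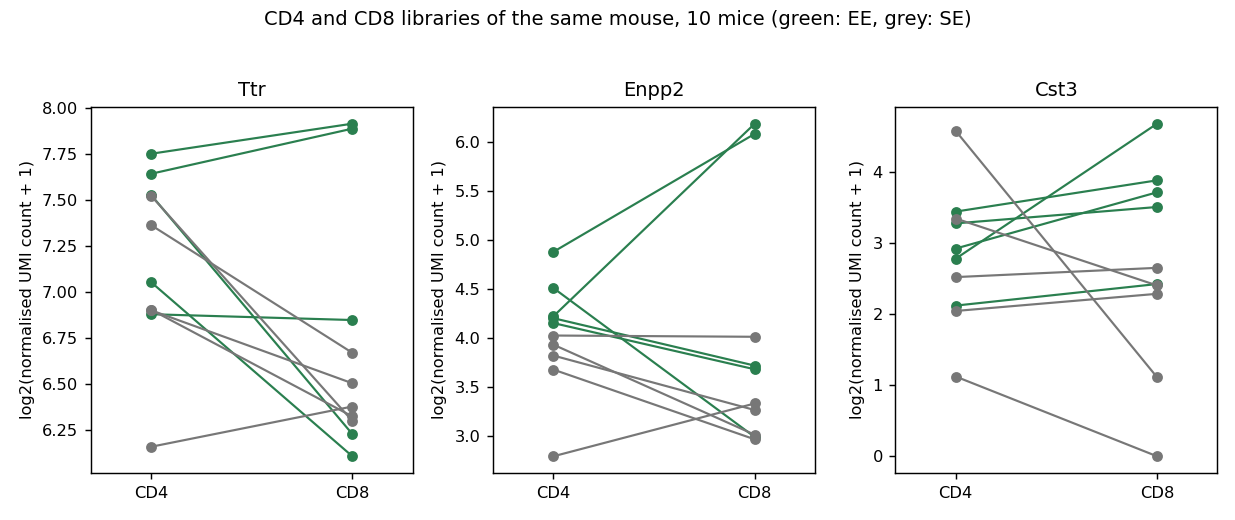
log2(normalised UMI count + 1) on the y axis in the CD4 and the CD8 library of the same mouse, 1 line per mouse (green, EE; grey, SE; CD8 SE replicates 5 and 6 as their mean). Ttr falls from CD4 to CD8 in 7 of 10 mice, and the 2 green lines at the top, which rise, are the mice of CD8 EE replicates 4 and 7.

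The mean level of all 3 transcripts was lower in libraries with first number 2, the deeper ones, and the test called Ttr. Ttr had a normalised count of 154 ± 57.9 (n = 19) with number 1 and 109 ± 36.6 (n = 12) with number 2, and the log2 difference with group as a term was -0.48 (SE 0.16, limma adjusted p = 0.0430). It was the only member called, where 10.7% of the 485 genes were called in either direction, 7.01% higher and 3.71% lower with number 2. The call depended on the processing. The adjusted p was 0.0505 with the mouse as a replicate block, and without each library in turn it ran from 0.0077 to 0.101, above the threshold in 15 of 31 fits. The difference was -0.24 without the 3 CD8 libraries, all of which carry number 1. They were left out for their high values of the 3 transcripts, which by itself shrinks each difference. No test is given for the fits without them. Enpp2 had 21.3 ± 18.3 and 12.7 ± 4.47, a log2 difference of -0.54 (SE 0.25, limma adjusted p = 0.156) that was called in edgeR and DESeq2 (adjusted p = 0.0385 and 0.0349) and came to -0.050 without these libraries. Cst3 had 8.24 ± 6.70 and 4.82 ± 2.50, a log2 difference of -0.54 (SE 0.32, limma adjusted p = 0.315), or -0.28 without them. The median log2 difference of all genes was 0.031. Of the 12 T cell identity genes 1 was called, Cd3g, with -0.72 (SE 0.18, limma adjusted p = 0.00565). A difference above 0 was found for 5 of the 12 and for 52% of all genes. Other list genes had an unadjusted limma p under 0.05, which 26.4% of all genes had, and were not called. Ptprc (-0.51), Ctsb (-0.75), Arhgef1 (-0.53) and S1pr1 (-0.64) were lower with number 2, and Gnai2 (0.80) was higher. What the first number stands for was not tested.

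**Figure D5:**
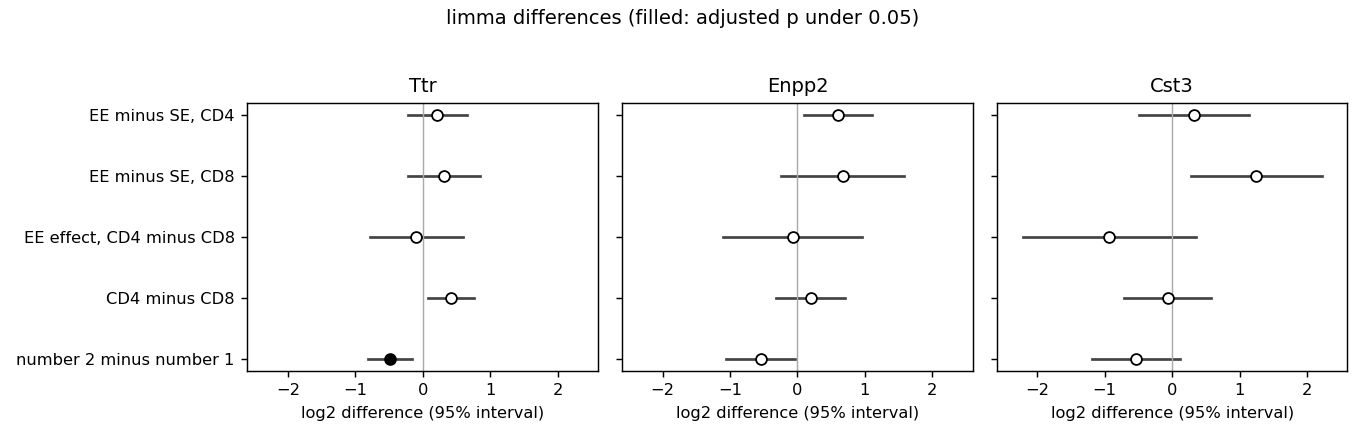
log2 differences of the 3 transcripts in limma (points) with 95% intervals (lines) for the comparisons on the y axis, filled where the adjusted p was under 0.05. Only the difference of Ttr between first title numbers, -0.48, is filled, and the intervals of Enpp2 in CD4 and Cst3 in CD8 for EE minus SE lie above 0 before adjustment.

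Other genes of the pathways of the 3 proteins were few in the table. Of a list of 20 genes of lysophosphatidic acid signalling and of related lysophospholipid receptors, 4 were measured: Enpp2, S1pr1, Gnai2 (an inhibitory G protein subunit) and Arhgef1 (a signalling protein that acts after G protein-coupled receptors). None of the 6 listed lysophosphatidic acid receptors was among the 485. In EE vs. SE, 0 of the 4 were called by limma in CD4 (median log2 difference -0.050 against -0.036 for all genes) or in CD8 (0.29 against 0.042). Between the cell types 1 of 4 was called, against 7.42% of all genes: S1pr1, a receptor for sphingosine-1-phosphate and not for lysophosphatidic acid, was higher in CD4 libraries by 1.3 (SE 0.30, limma adjusted p = 0.00407), with 4.67 ± 3.77 in CD4 EE, 4.75 ± 2.35 in CD4 SE, 1.99 ± 2.06 in CD8 EE and 1.04 ± 1.48 in CD8 SE. These levels are at or near the floor of 3 UMIs in the shallower libraries. Of the list of cystatins and cathepsins, 4 of 24 genes were measured, namely Cst3 and the cathepsins Ctsb, Ctsd and Ctsw. In CD8 EE vs. SE 4 of 4 differences were above 0, as were 54.5% of those of all genes (median 0.41 against 0.042), and 0 were called. Between the cell types 1 of 4 was called, again against 7.42%: Ctsw, a cathepsin of cytotoxic lymphocytes, was lower in CD4 libraries, with a log2 difference of -1.20 (SE 0.29, limma adjusted p = 0.0057). Of 15 listed genes of thyroid hormone and retinol transport, Ttr alone was in the table. Ifi27, an interferon-induced gene and the third epithelial list member, had a mean of 3.96 ± 2.72 and was detected in 28 of 31 libraries, and its log2 difference between EE and SE in CD4 was -0.022 (SE 0.41, limma adjusted p = 0.994).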

How the data were processed

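RNA of small sorted pools of T cells was tagged with UMIs and sequenced. Per the labels and the study's methods, the authors trimmed adaptors with cutadapt, mapped with STAR 2.4.0a to mm10 (GRCm38), counted UMIs per gene, left out CD4 samples with Cd8a or Cd8b transcripts, removed genes of low abundance and normalised with DESeq2. The deposited signal is thus a UMI count divided by 1 size factor per library. A dot in a deposited symbol was read as a hyphen. Whole UMI counts were recovered from the values (100% within 0.01 of a whole number), and 0 columns were left out.

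The members and gene lists were chosen with earlier results of these data known. The main test was limma 3.58.1 (R 4.3.3) on log2(normalised count + 1), which understates changes of low genes, fitted with a trended prior and two-sided p-values. These were adjusted by Benjamini-Hochberg over every gene detected in the libraries of the comparison, and 0.05 was the threshold. edgeR 4.0.16 and DESeq2 1.42.0 on the recovered counts were alternatives, with other pseudocounts, a filter on the mean, rescaling, the first title number and leaving out libraries. Permutation tests (100000 resamples, or exact) used scipy 1.17.1. Pairing came from environment, first number and animal number, taken from the titles to identify a mouse (in doubt for CD8 SE replicates 5 and 6); the correlation that limma estimated within mice was 0.101 for CD4 vs. CD8. Named genes were the 3 members, list genes with an unadjusted p under 0.05 or else the highest mean, and for each member the 5 genes most like it. Whether the libraries of a group came from separate animals is given only by animal numbers, so p-values measure the spread between libraries. Scripts were tested on simulated data. Intervals and floors are exact binomial (95%) and 3 UMIs.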

Additional observations from a re-analysis of the deposited data

Results flagged for a closer look

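CD8 SE replicate 4 stood apart from the other 6 libraries of its group for all 3 transcripts by Dixon's criterion at the 95% level, which compares the gap to the nearest library with the range of the group. Its normalised counts were 201 for Ttr, 26.9 for Enpp2 and 12.4 for Cst3, and the gap took 0.812, 0.586 and 0.574 of the range, against a critical value of 0.568 for 7 libraries. In CD4 SE, replicate 2 stood apart for Cst3, at 22.9, with a gap of 0.632 of the range against a critical value of 0.526 for 8 libraries. Each of the 12 combinations of transcript and group was looked at, at both ends. By chance about 1 in 20 groups is singled out in this way. With CD8 SE replicates 5 and 6 taken as their mean, since their titles give the same animal, 6 values remain with a critical value of 0.625, which the gap of Ttr passes and those of Enpp2 and Cst3 do not. In CD8 EE, Cst3 in replicate 4 had a gap of 0.537 of the range, short of 0.568.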

How the results depend on the processing

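Of the results recomputed under other settings, 309 were unchanged, 19 reversed direction, 12 fell short of the threshold, 10 newly passed it and 11 gene counts moved. With 1 library left out these were 589, 12, 15, 1 and 3. Unchanged means the same direction and side of the threshold, or a similar count of called genes. The threshold was applied to adjusted p in the fits and to unadjusted p in correlations and other permutation tests. The exceptions follow, as log2 differences unless named otherwise, and the cause was not tested. The EE differences of the 3 transcripts in CD4 and in CD8 cells kept their direction under all settings run. They stayed short of the adjusted threshold in all fits. The unadjusted exact permutation p was under 0.05 for Enpp2 in CD4 (0.00411) and for Cst3 in CD8 (0.0408). For CD4 vs. CD8, Enpp2 came to -0.044 in edgeR, -0.099 in DESeq2 and -0.17 within first number 1, and Cst3 to 0.026 with a pseudocount of 0.25. The Enpp2 interaction was 0.26 within number 2. The Ttr difference between first numbers lost its call with a pseudocount of 0.25 (-0.49), after rescaling to equal table totals (-0.40, where the median of all genes was 0.11) and with CD8 SE replicates 5 and 6 averaged (-0.50). That of Enpp2 gained a call in edgeR (-0.66) and DESeq2 (-0.74), and that of Cst3 in DESeq2 (-0.81). The slope of Enpp2 was 0.00092 within number 1 and that of Cst3 0.0073 within number 2.

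Leaving out CD8 EE replicates 4 and 7 and CD8 SE replicate 4 was chosen after seeing the data, by these same levels. CD4 vs. CD8 was then 0.71 for Ttr, 0.68 for Enpp2 and 0.29 for Cst3, or 0.66, 0.66 and 0.26 with the first number as a covariate. The interaction was 0.12 for Ttr and 0.49 for Enpp2 (0.47 with the covariate), the first number difference of Ttr was -0.24 and the slope of Enpp2 was 0.0024 with or without the covariate.

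With the mouse as a replicate block, the pairing moved the Ttr difference between first numbers to -0.48 (adjusted p = 0.0505 in limma), and the fixed block moved Cst3, CD4 vs. CD8, to 0.14. It changed no other call of the 3 transcripts. Without the pair of CD8 SE replicates 5 and 6, chosen after seeing the data, the differences within mice kept their direction and side of the threshold. CD4 vs. CD8 called 23 genes with the fixed block. It called 14 with a mean of at least 5, 55 in DESeq2, and 20 within number 1 and 20 within number 2, against 36. First numbers differed in 90 genes in edgeR and 104 in DESeq2, against 52. EE vs. SE in CD4 called 1 gene, Dnaja1, with a pseudocount of 4, in edgeR and in DESeq2, and in CD8 it called 1, Hspa1a, within number 1. Both are outside the rule for named genes.

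For correlations, r of Ttr with cells was -0.400 after centring (unadjusted permutation p = 0.0256). It was also -0.400 without the 3 CD8 libraries. These were left out for their high levels, Ttr among them, so no test is given for that value. The r of Enpp2 with cells was 0.0643 within number 1 and 0.0464 within CD8, and that of Cst3 was 0.0701 without the 2 extreme pools and 0.197 within number 2. Weaker relations were Ttr with Enpp2 (0.565 within number 2), Ttr with Cst3 (0.136 within number 2, 0.355 without the 3 libraries, 0.360 in CD4) and Enpp2 with Cst3 (0.0744, 0.329 and 0.447). Ttr with the UMI total within number 2 was -0.668 without the 2 extreme libraries.

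Without 1 library in turn, CD4 vs. CD8 ranged from 0.36 to 0.51 for Ttr and from -0.25 to 0.065 for Cst3, the interaction from -0.27 to 0.069 for Ttr and from -0.29 to 0.26 for Enpp2, and the slope of Enpp2 from -0.065 to 0.018. The first number difference of Ttr ranged from -0.59 to -0.41 and lost its call without any 1 of CD4 EE replicates 3, 6, 7 and 9, CD4 SE replicates 1, 2, 3, 5 and 6, CD8 EE replicates 1, 2, 4 and 7, and CD8 SE replicates 4 and 5. The slope called 0 to 1 genes (Ptma, without CD4 EE replicate 3 or 5 or CD8 SE replicate 6).

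Depth limits Cst3 most, with at most 3 UMIs in 8 libraries.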
